A study of Mus musculus with 30 samples.

Results

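The 8 striated muscle myosin heavy chain genes Myh1, Myh2, Myh3, Myh4, Myh6, Myh7, Myh7b and Myh8 were followed through 30 RNA-seq libraries of the mouse. They were taken by symbol from the 36103 genes of the deposited count table, all 8 being present in it. The libraries were made from whole gastrocnemius, a fast hindlimb muscle, diaphragm, heart and liver of Mtm1-/y males, which are labelled Mtm1KO, and of their wild-type (WT) male littermates at 5 weeks of age, all bred on the same pure genetic background. Mtm1 codes for myotubularin, a phosphoinositide phosphatase whose loss causes myotubular myopathy in people. There were 4 WT and 4 Mtm1-/y libraries of the gastrocnemius and of the heart, 4 and 3 of the diaphragm, and 3 and 4 of the liver. Whole pieces of tissue were used, so that each library holds RNA of fibres together with that of vessels, connective tissue and other cells, and nothing in the labels ties libraries of different tissues to the same animal. The p-values therefore measure the spread between these samples.

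Myosin heavy chains form the thick filament of the sarcomere, and the head of each chain is the motor that pulls on actin. Vertebrates hold a gene for each fibre type, and the isoform that a fibre makes sets much of its speed of shortening and its cost in ATP. Myh4 codes for the fastest type, IIb, Myh1 for type IIx, Myh2 for type IIa, and Myh7 for the slow type I chain, which is also the cardiac beta chain. Myh6 codes for the cardiac alpha chain, the main chain of the adult mouse ventricle. Myh3 and Myh8 are the embryonic and perinatal chains of developing muscle, which return in regenerating fibres, and Myh7b codes for a slow-type chain that is scarce as protein in most adult muscle.

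The genes lie in 3 places of the mm10 genome. On chromosome 11, on the + strand and in this order, lie Myh3 from 67078300 to 67102291, Myh2 from 67171027 to 67197517, Myh1 from 67200052 to 67224575, Myh4 from 67238029 to 67260446 and Myh8 from 67277124 to 67308634. Only 2534 bases separate Myh2 from Myh1, and 13453 separate Myh1 from Myh4. On chromosome 14, on the - strand, Myh6 lies from 54941921 to 54966927 and Myh7 from 54970684 to 54994626, with 3756 bases between them. Myh7b lies alone on chromosome 2, + strand, from 155611212 to 155634307.

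The upstream sequences of the 5 chromosome 11 genes are shown because these neighbours moved in different directions in the gastrocnemius, as given further on. Each line holds the 250 bases before the transcription start that RefSeq gives on GRCm38.p6, the assembly that mm10 names, and the strings set in capitals are explained after the lines.
Myh3, chr11:67078050-67078299, + strand: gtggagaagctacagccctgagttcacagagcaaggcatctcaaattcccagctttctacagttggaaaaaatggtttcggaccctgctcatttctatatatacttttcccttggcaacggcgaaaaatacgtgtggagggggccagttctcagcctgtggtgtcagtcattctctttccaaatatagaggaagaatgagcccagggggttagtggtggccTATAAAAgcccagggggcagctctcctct
Myh2, chr11:67170777-67171026, + strand: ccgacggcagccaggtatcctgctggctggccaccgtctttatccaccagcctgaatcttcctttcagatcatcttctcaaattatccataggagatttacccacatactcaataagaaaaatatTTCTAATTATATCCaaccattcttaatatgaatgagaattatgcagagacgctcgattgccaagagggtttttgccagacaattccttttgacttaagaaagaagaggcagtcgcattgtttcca
Myh1, chr11:67199852-67200101, + strand: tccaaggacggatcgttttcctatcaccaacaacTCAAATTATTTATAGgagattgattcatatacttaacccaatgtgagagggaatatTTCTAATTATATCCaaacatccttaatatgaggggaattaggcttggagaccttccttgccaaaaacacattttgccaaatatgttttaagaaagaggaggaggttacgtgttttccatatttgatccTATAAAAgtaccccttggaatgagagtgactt
Myh4, chr11:67237562-67237811, + strand: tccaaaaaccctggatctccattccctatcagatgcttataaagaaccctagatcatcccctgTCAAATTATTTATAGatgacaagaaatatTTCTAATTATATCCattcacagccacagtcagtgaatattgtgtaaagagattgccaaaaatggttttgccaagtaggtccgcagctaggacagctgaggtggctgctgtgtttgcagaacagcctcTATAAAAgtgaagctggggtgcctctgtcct
Myh8, chr11:67276874-67277123, + strand: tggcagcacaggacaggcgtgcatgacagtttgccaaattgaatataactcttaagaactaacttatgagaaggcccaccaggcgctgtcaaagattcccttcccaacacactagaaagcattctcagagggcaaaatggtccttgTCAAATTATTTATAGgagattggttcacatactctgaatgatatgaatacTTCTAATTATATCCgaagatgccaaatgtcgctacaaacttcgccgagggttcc

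Capitals mark 3 strings, searched on both strands of the window of 250 bases before and 50 after each start. The 14 bases TTCTAATTATATCC are the longest run that Myh1, Myh2, Myh4 and Myh8 share, and they stand in 4 of the 32851 RefSeq promoters, a share of 0.0122%. The 15 bases TCAAATTATTTATAG are the longest run shared by Myh1, Myh4 and Myh8, present in 3 promoters. The first run begins 160 bases before the start in Myh1, 158 in Myh4, 125 in Myh2 and 54 in Myh8. The third string, TATAAAA, is found in 5.48% of all promoters and lies 29 bases before the start in Myh3, 32 in Myh1 and 31 in Myh4. In Myh2 its match lies 10 bases after the start, outside the printed stretch, and the windows of Myh8, Myh6, Myh7 and Myh7b hold no match. The runs were found by comparing these genes with each other, so that their sharing is a description of the cluster and not a finding about any factor.

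The RefSeq table places microRNAs outside the exons of Myh6, Myh7, Myh7b and Myh3, the last with miR-6923-5p. One mature form for each of the slow and cardiac genes is shown, with the seed (bases 2 to 8) in capitals, so that their seeds can be compared. The libraries were made from polyadenylated RNA and do not measure mature microRNAs.
mmu-miR-208a-3p, in Myh6, chr14:54949072-54949093, - strand: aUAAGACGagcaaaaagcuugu
mmu-miR-208b-3p, in Myh7, chr14:54975710-54975731, - strand: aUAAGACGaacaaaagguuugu
mmu-miR-499-5p, in Myh7b, chr2:155622893-155622913, + strand: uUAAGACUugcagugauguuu
The seeds of miR-208a-3p and miR-208b-3p were identical, and that of miR-499-5p differed from them only in its last base.

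The libraries held 24873817 to 44289343 counts. Levels are CPM, counts scaled to a common library size, after TMM normalization over all 30 libraries, with the SD between libraries, and plain CPM stands for counts set against the library total with no TMM factor. A share is the reads of a gene per kb of its exons, as a percentage of the sum over the 8 genes in the library, and it alone allows levels of different genes to be compared. Genotypes were compared in each tissue by edgeR, which gave the log2 fold change of Mtm1-/y over WT and its standard error (SE), and a gene is said to rise or fall at a Benjamini-Hochberg adjusted p under 0.05 over all genes tested in that tissue. The level of Mtm1 itself was 4.45 to 5.87 plain CPM in the Mtm1-/y gastrocnemius against 16.2 to 18.9 in WT, and the genotypes did not overlap in any of the 4 tissues. In whole tissue, fewer fibres of a type and less RNA of that type per fibre cannot be told apart.

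Reads of 50 bases do not always tell these genes apart. Of all 50-base windows of the longest coding transcript, 100% were found in no other member for Myh7b, 96.3% for Myh3, 81.4% for Myh4, 80.1% for Myh8, 77.8% for Myh7, 77.4% for Myh6, 73.9% for Myh1 and 73.3% for Myh2. The closest pairs were Myh6 with Myh7, where 22.6% of the windows of Myh6 were identical in Myh7, and Myh1 with Myh2, where 19.7% of the windows of Myh1 were identical in Myh2. Levels of these pairs are therefore uncertain where the partner is much more abundant. The paper counted only uniquely aligned reads, so a read that fits both members of a pair equally adds to neither. Annotated genes also lie antisense to Myh1 (Myhas), Myh2 (9430073C21Rik), Myh7 (Mhrt, Gm29015, Gm17428 and Gm31251), Myh6 (Gm49130) and Myh7b (Trpc4ap), and the strand setting of the counting is not given in the sources used here.

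WT gastrocnemius was led by Myh4. Myh4 took 89.9% ± 2.4 (SD, n = 4) of the family, Myh1 5.21% ± 1.49, Myh2 3.26% ± 0.63 and Myh7 1.24% ± 0.65. Myh1 stood above Myh2 in each of the 4 libraries, although their ranges overlapped. Myh6, Myh7b, Myh3 and Myh8 followed with 0.313%, 0.0232%, 0.0137% and 0.00970%. The order of Myh3 and Myh8 depended on the length used, since the merged exons of Myh8 span 11772 bases and its longest coding transcript 6149.

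In the Mtm1-/y gastrocnemius the share of Myh4 was 70.8% ± 6.9 (SD, n = 4), that of Myh1 17.3% ± 3.8 and that of Myh2 9.80% ± 2.62. The share of Myh4 was 86.7%, 92.5%, 89.8% and 90.7% in the WT libraries and 64.5%, 65.5%, 78.4% and 74.9% in the Mtm1-/y libraries. Every Mtm1-/y library lay below every WT library, with a difference of means of -19.1 percentage points, and Myh1 and Myh2 lay above WT in every library, by 12.1 and 6.54 points. The number of Myh4 reads per kb for each Myh1 read per kb was 13.0 to 25.0 in WT and 3.13 to 5.46 in Mtm1-/y, while the ratio of Myh2 to Myh1 was 0.518 to 0.830 and 0.458 to 0.659. Shares of 5 of the 8 genes did not overlap between genotypes, and each of them had p = 0.0286 in a two-sided exact permutation test, the smallest p that 4 against 4 libraries can give, over 24 tests without adjustment. Shares of a library are parts of the same total, so a lower share of Myh4 raises the others. These tests are not independent of each other. Over the 3 striated tissues 7 of 24 shares did not overlap, and that count was the same with no division by length or with other lengths.

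**Figure D1:**
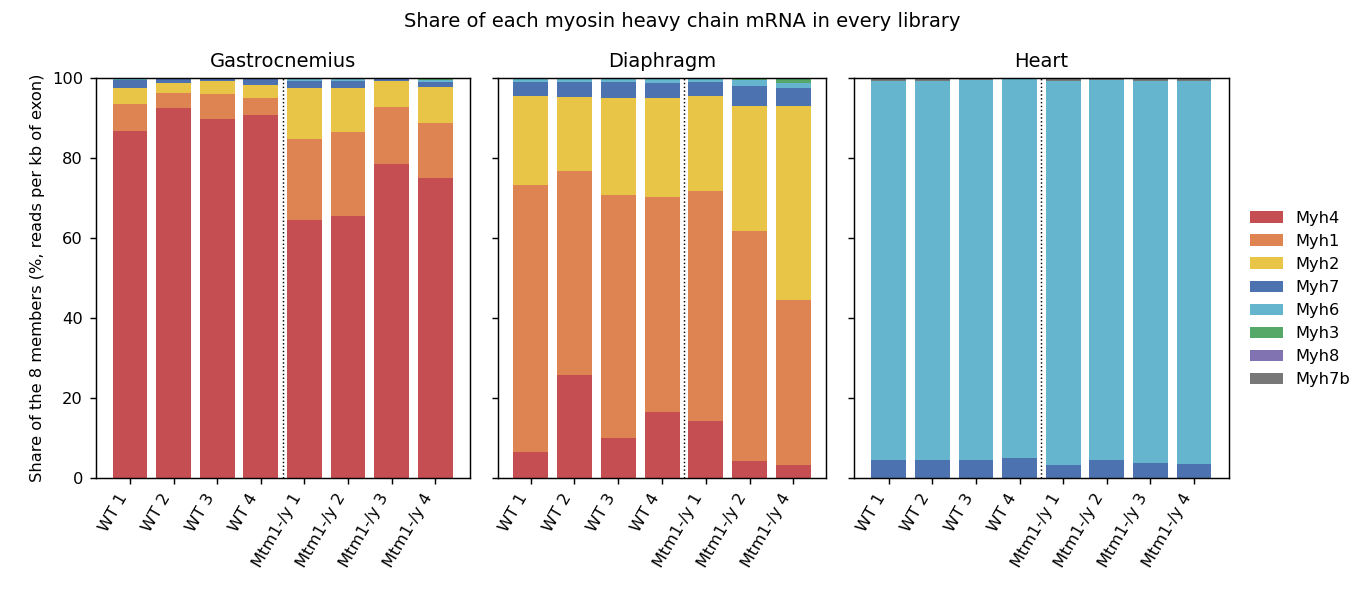
Share of each of the 8 genes (%, from reads per kb of exon) in each of the 23 striated muscle libraries, 1 bar per library, WT left and Mtm1-/y right of the dotted line. Myh4 filled 86.7% to 92.5% of the WT gastrocnemius bars and 64.5% to 78.4% of the Mtm1-/y bars, Myh1 led in every diaphragm library except Mtm1-/y 4, and Myh6 filled at least 94.6% of every heart bar.

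Of the 8 genes, 4 rose and 1 fell in the Mtm1-/y gastrocnemius by edgeR, and DESeq2 called these 5 too. DESeq2, fitted with no filter on low counts, called 4842 of 29889 genes, 16.2%, and edgeR called 4479. Among all 15456 genes tested in this muscle, 14.1% rose and 14.9% fell, 29% in either direction. Genotypes did not overlap for these same 5 genes, against 30.6% of all genes. The median log2 fold change over the 8 genes was 0.43, and over all genes it was 0.02.

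The fall was that of Myh4, the IIb gene. It measured 55412, 69980, 56355 and 61872 CPM in WT and 26055, 26039, 33855 and 37310 CPM in Mtm1-/y. The lowest WT library stood well above the highest Mtm1-/y library. The mean went from 60905 ± 6688 to 30815 ± 5683 CPM (SD, n = 4 each), a log2 fold change of -1.0 with an SE of 0.15 (edgeR adjusted p = 0.0012). Since Myh4 made up most of the family, the 8 genes together took 5.62% ± 0.29 of all reads of a WT library and 4.57% ± 0.41 of an Mtm1-/y library (exact permutation p = 0.0286, n = 4 each).

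Myh1, the IIx gene next to Myh4 on the chromosome, moved the other way. It measured 4515, 2955, 4157 and 3012 CPM in WT and 8663, 8784, 6548 and 7226 CPM in Mtm1-/y, with no overlap. Its log2 fold change was 1.08 (SE 0.16, edgeR adjusted p = 0.0013).

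Myh2, the IIa gene, measured 2965, 2167, 2417 and 2809 CPM in WT and 6086, 5142, 3367 and 5349 CPM in Mtm1-/y. The genotypes did not overlap, and Mtm1-/y 3 was the lowest of its group. The log2 fold change was 0.93 (SE 0.17, edgeR adjusted p = 0.0034).

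Myh3, the embryonic chain, showed the steepest rise of the 8 genes in this muscle. It measured 9.93, 9.18, 7.74 and 10.3 CPM in WT and 65.4, 109, 65.5 and 291 CPM in Mtm1-/y. WT libraries were tightly grouped, and Mtm1-/y 4 stood far above the other 3 of its group. The log2 fold change was 3.81 (SE 0.49, edgeR adjusted p = 0.00058), and it was 3.10 without Mtm1-/y 4. Even so, Myh3 made up only 0.291% ± 0.20 of the family in Mtm1-/y (SD, n = 4).

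Myh8, the perinatal chain, measured 13.1, 13.1, 11.9 and 13.1 CPM in WT and 23.2, 25.6, 25.3 and 33.1 CPM in Mtm1-/y. It rose in all 4 libraries by a narrow range, with a log2 fold change of 1.05 (SE 0.11, edgeR adjusted p = 0.00024). The ratio of Myh3 to Myh8 per kb went from 1.26 to 1.53 in WT to 5.04 to 17.1 in Mtm1-/y (exact permutation p = 0.0286, n = 4 each). With the length of the longest coding transcript the ratio was 0.662 to 0.801 in WT and 2.64 to 8.97 in Mtm1-/y, so that Myh8 was then the higher of the pair in WT. Library Mtm1-/y 4, the highest in Myh3 and Myh8, was at the same time the lowest of the 4 Mtm1-/y libraries in Myog, the gene of the differentiation factor myogenin, with 38.5 plain CPM against 50.4 to 120 in the other 3.

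The slow and cardiac genes did not pass the test in the gastrocnemius. Myh7 measured 1906, 1134, 474 and 1280 CPM in WT and 1026, 1050, 248 and 955 CPM in Mtm1-/y, a log2 fold change of -0.56 (SE 0.47, edgeR adjusted p = 0.39). Replicate 3 was the lowest library of both genotypes. The same 2 libraries were lowest in Tnnt1 and Tnni1, the slow troponins, with 121 and 90.1 plain CPM in WT 3 and 215 and 101 in Mtm1-/y 3. Myh6 ranged from 88.2 to 380 CPM in WT and from 51.6 to 225 in Mtm1-/y, and Myh7b from 10.6 to 27.6 and from 3.85 to 22.8 CPM. Myh6 had a log2 fold change of -0.47 (SE 0.48, edgeR adjusted p = 0.49) and Myh7b of -0.07 (SE 0.46, adjusted p = 0.92), and the genotypes overlapped for all 3 genes. The share of the 3 fast adult genes together was 98.4% ± 0.8 in WT and 97.9% ± 0.9 in Mtm1-/y (exact permutation p = 0.46, n = 4 each).

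**Figure D2:**
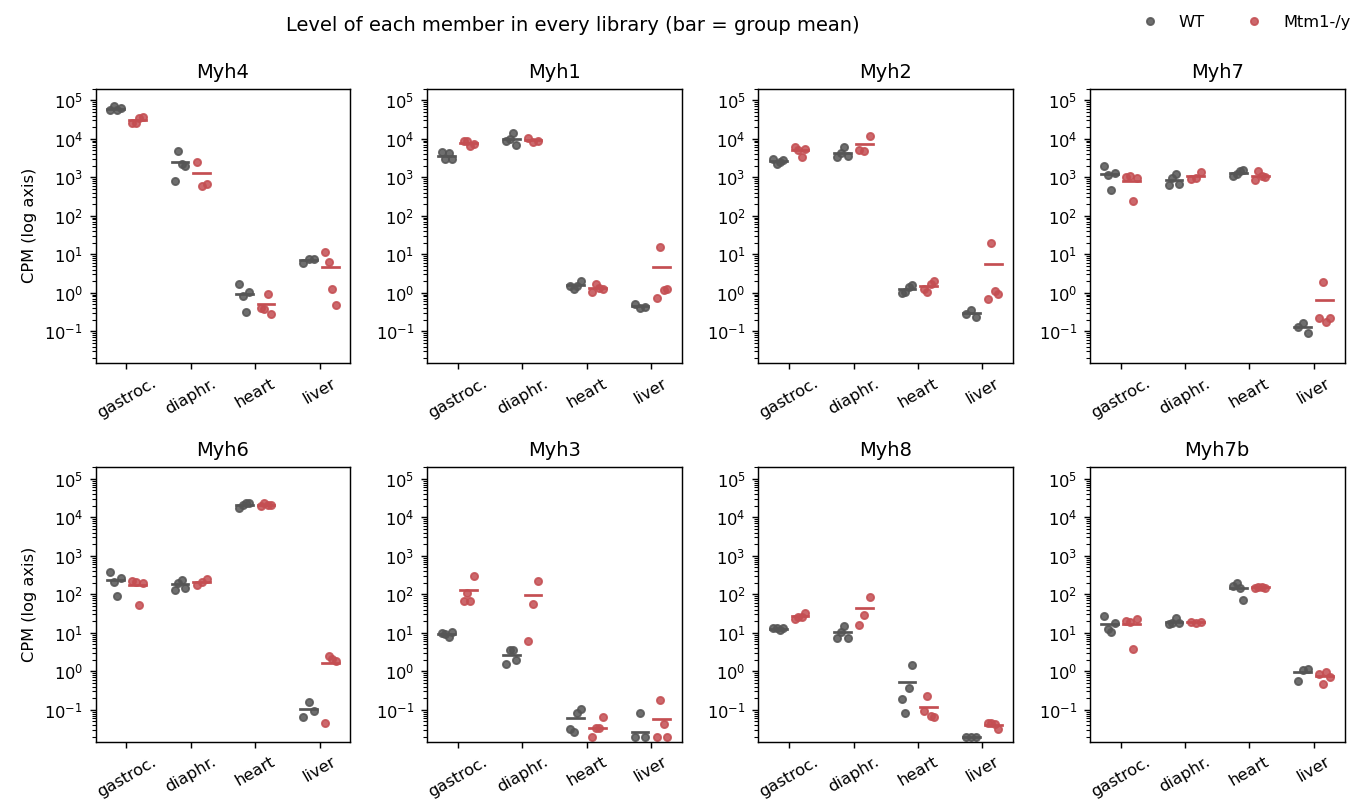
Level of each gene (CPM after TMM scaling, log axis) in every library of the 4 tissues, WT in grey and Mtm1-/y in red, with a bar at the group mean and libraries at 0 drawn at the foot of the axis. In the gastrocnemius the genotypes separate for Myh4, Myh1, Myh2, Myh3 and Myh8, and Myh3 in Mtm1-/y diaphragm spreads from 6.03 to 221 CPM.

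The direction of these 5 changes was kept when the libraries were scaled to the family itself. Myh4 made up most of that sum, so its fall alone raises the estimates of the other genes under this scaling. The kept rises are therefore not separate support. With library sizes set to the summed counts of the 8 genes, the median of all genes moved to 0.65 and 98.3% of all calls were rises, against 48.5% with TMM. Myh4 then had a log2 fold change of -0.37 and Myh1 of 1.70. All 5 genes passed the edgeR test under this scaling as well, while the estimates of Myh7 and Myh6, which did not pass under either, changed sign and stood at 0.08 and 0.17. Fitted on all 30 libraries at once, edgeR called only Myh3, and the adjusted p of the other 4 lay between 0.12 and 0.36.

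Other parts of the sarcomere moved with Myh4 in the gastrocnemius. Of the 6 fast thin filament and calcium pump genes, all 6 fell, with a median log2 fold change of -0.76. Actn3, a crosslinker of fast fibres, fell by 0.92 on the log2 scale, Tnnt3, the fast troponin T, by 0.79 and Tpm1, a tropomyosin, by 0.78. None of the 5 slow thin filament genes passed the edgeR test (1, Tpm3, at an unadjusted p under 0.05 and 0 by DESeq2), with a median of -0.50. Atp2a2, the slow calcium pump, had a log2 fold change of -0.55 (SE 0.30) and Tpm3, the slow tropomyosin, of -0.81 (SE 0.33). These medians rest on TMM scaling. In plain CPM the summed slow list was 873 to 2594 in WT and 856 to 2132 in Mtm1-/y, and the fast list 106607 to 119364 and 79223 to 89925.

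Of 10 thick filament partners, 8 were tested, and 5 fell and 2 rose, with a median of -0.44. Mybpc2, the fast myosin binding protein C, fell by 0.91 on the log2 scale and Ttn, titin, by 0.62, while Myom3, a myomesin of slow and IIa fibres, rose by 1.59. Among the myosin light chains and their kinases, 4 of 9 tested fell and 1 rose, with a median of -0.61. Myl1 and Mylpf, light chains of fast fibres, each fell by 0.61. Myl3, a light chain of the ventricle and of slow fibres, fell by 1.06 (SE 0.27, edgeR adjusted p = 0.017), and the kinase gene Mylk2 by 1.03. Myl4, the atrial and embryonic light chain, which is also in the cardiomyocyte and atrial marker lists, rose by 1.99.

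Of 8 genes of myosin folding and turnover, 4 fell and 2 rose, with a median of -0.25. Fbxo32 and Trim63, ubiquitin ligases of muscle atrophy, rose by 1.20 and 0.89 on the log2 scale, and Trim55, a related protein of the sarcomere, fell by 0.52. Of 17 regulators of fibre type, 6 fell and 1 rose, with a median that was also -0.25. Sox6, which represses slow genes in fast fibres, fell by 0.78, Maf, which acts in type IIb fibres, by 0.75 and Ppargc1a, an activator of oxidative genes, by 0.60.

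Of 13 genes of regeneration and embryonic muscle, 7 rose and 2 fell, with a median log2 fold change of 0.99. Their summed level went the other way, from 5513 to 6531 plain CPM in WT to 1003 to 2823 in Mtm1-/y. Ncam1, an adhesion molecule of immature and denervated fibres, rose by 1.77, Myf6, a myogenic factor, by 0.91 and Mymx, which drives fusion of myoblasts, by 3.35. Of the 6 other myosin heavy chain genes, Myh10 and Myh14, both non-muscle, rose by 0.94 and 0.77, and Myh11, the smooth muscle chain, fell by 0.38. Of the antisense genes, 3 were tested, and Myhas, which runs through Myh1 on the other strand, fell by 0.86 (SE 0.13, edgeR adjusted p = 0.0014), opposite to Myh1.

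Markers of other cell types also differed in the gastrocnemius. All 8 macrophage markers rose, and their summed level was 35.7 to 67.1 plain CPM in WT and 154 to 200 in Mtm1-/y. Of 8 white adipocyte markers 7 rose, and the summed level was 192 to 281 and 376 to 561 plain CPM. All 9 markers of the muscle fibre itself fell, with a median of -0.73, and their sum was 179532 to 202202 and 142601 to 151295 plain CPM. Of 11 hepatocyte markers tested 2 fell and 1 rose, with sums under 113 plain CPM. Of the cardiomyocyte markers, Myl7 and Nppa, defining genes of the atrium, were at or under 0.385 plain CPM in all 8 libraries, and 3 of 5 tested rose and 1 fell, while 2 of 5 atrial markers rose. The one that fell was Actc1, the cardiac and embryonic actin, with a log2 fold change of -2.17 (SE 0.44, edgeR adjusted p = 0.0052), and the summed level of the cardiomyocyte list was 5358 to 6363 plain CPM in WT and 450.7 to 2368 in Mtm1-/y. The part of macrophages and adipocytes in the changes of the 8 genes was not tested.

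**Figure D3:**
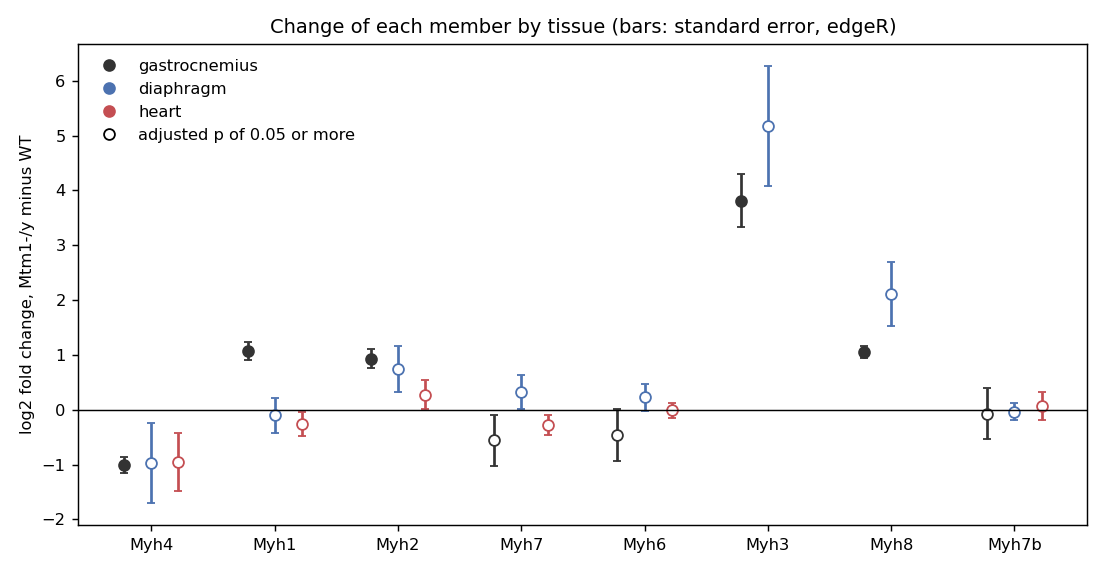
Log2 fold change of each gene in Mtm1-/y against WT by tissue, with its standard error, filled where the edgeR adjusted p was under 0.05. All 5 filled points belong to the gastrocnemius, and the bar of Myh3 is wider in the diaphragm (SE 1.1) than in the gastrocnemius (SE 0.49), while Myh7, Myh6 and Myh7b have wider bars in the gastrocnemius.

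WT diaphragm was led by Myh1. It took 57.9% ± 7.1 (SD, n = 4) of the family, Myh2 22.5% ± 2.8, Myh4 14.8% ± 8.5 and Myh7 3.69% ± 0.22. Myh4 was the most variable, from 6.51% to 25.9% over the 4 WT libraries, and it passed Myh2 in 1 of them. Against WT gastrocnemius, Myh4 was lower and Myh1 higher in the WT diaphragm, by log2 differences of gastrocnemius minus diaphragm of 4.63 (SE 0.58, edgeR adjusted p = 3.49e-05) and -1.43 (SE 0.22, edgeR adjusted p = 0.00017). These were 2 of the 8 genes, where 54.2% of all genes differed. Myh2 had a difference of -0.73 (SE 0.30, edgeR adjusted p = 0.052) and Myh3 of 1.81 (SE 0.79, adjusted p = 0.069).

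The diaphragm libraries differed in a second way. Alb, the albumin gene of hepatocytes, stood at 26742, 16855, 284 and 19826 plain CPM in WT 1 to 4 and at 1816, 31876 and 583 in Mtm1-/y 1, 2 and 4. The summed level of 12 hepatocyte markers was 536 to 43481 plain CPM in WT and 966 to 51649 in Mtm1-/y, and that of 8 adipocyte markers was 765 to 4699 and 658 to 2327. The larger differences are given also for the 3 libraries under 10000 plain CPM of Alb (WT 3, Mtm1-/y 1 and Mtm1-/y 4), a choice made after these levels were seen, in which the lone WT library is assumed to vary like the others.

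In the Mtm1-/y diaphragm the share of Myh1 was 52.0% ± 9.2 (SD, n = 3), that of Myh2 34.4% ± 12.6, that of Myh4 7.37% ± 6.13 and that of Myh7 4.43% ± 0.77. The two-sided exact permutation p against WT was 0.46 for Myh1, 0.17 for Myh2, 0.29 for Myh4 and 0.23 for Myh7, where 4 against 3 libraries cannot go below 0.0571. The shares of Myh3 and Myh8 did not overlap between genotypes and had that smallest p. Myh3 went from 0.0158% of the family to 0.509%, and Myh8 from 0.0317% to 0.125%.

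None of the 8 genes passed the edgeR test in the Mtm1-/y diaphragm, where 0.0119% of 16796 genes did. At an unadjusted p under 0.05 there were 2, Myh3 and Myh8. DESeq2 called those 2 at an adjusted p under 0.05, where it called 1.41% of 31101 genes, low counts included. Genotypes did not overlap for these 2 genes, against 10% of all genes. The median log2 fold change was 0.27 over the 8 genes and -0.01 over all genes.

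Myh3 measured 1.55, 3.62, 3.55 and 1.93 CPM in WT diaphragm and 6.03, 55.2 and 221 CPM in Mtm1-/y 1, 2 and 4. Every Mtm1-/y library was above every WT library, but they spread over a wide range. The log2 fold change was 5.17 (SE 1.1), with an adjusted p of 0.27 by edgeR and 0.00030 by DESeq2. In the 3 libraries with little albumin it was 5.01 (SE 2.52), and without Mtm1-/y 4 it was 3.54 (SE 0.81).

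Myh8 measured 7.41, 10.7, 15.4 and 7.55 CPM in WT and 15.7, 29.1 and 86.2 CPM in Mtm1-/y. The highest WT library nearly reached the lowest Mtm1-/y library. The log2 fold change was 2.11 (SE 0.59), with an adjusted p of 0.30 by edgeR and 0.0071 by DESeq2, and it was 1.72 (SE 1.13) in the 3 libraries with little albumin and 1.14 (SE 0.39) without Mtm1-/y 4. The order of the Mtm1-/y libraries in Myh3 and Myh8 was not that of Myog, which stood at 75.0 plain CPM in Mtm1-/y 1, 18.9 in Mtm1-/y 2 and 49.3 in Mtm1-/y 4, all above the WT range of 7.03 to 11.3.

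Myh2 measured 3354, 4185, 6277 and 3531 CPM in WT and 4972, 4937 and 11639 CPM in Mtm1-/y diaphragm, with overlap (log2 fold change 0.74, SE 0.42, edgeR adjusted p = 0.60), and the log2 fold change was 0.40 (SE 0.62) in the 3 libraries with little albumin. Mtm1-/y 4 was the only diaphragm library in which the share of Myh2, 48.3%, exceeded that of Myh1, 41.3%. Its slow troponin Tnni1 was also the highest of the 7, at 711 plain CPM against 169 to 286 in the other 6. Myh4 measured 823, 4899, 2231 and 1995 CPM in WT and 2553, 593 and 659 CPM in Mtm1-/y. Its log2 fold change was -0.97 (SE 0.73), and -0.51 (SE 0.81) in the 3 libraries with little albumin. Its share was 14.4%, 4.45% and 3.24% in Mtm1-/y, so that 2 of the 3 lay below the WT range. The difference of the mean shares of Myh4, Mtm1-/y minus WT, was -7.43 percentage points over all 7 libraries and -1.37 in the 3 with little albumin. In the same order it was 11.9 and 11.8 for Myh2, -5.90 and -11.2 for Myh1, and 0.73 and 0.21 for Myh7. Myh1 (-0.10, SE 0.32), Myh7 (0.32, SE 0.30), Myh6 (0.23, SE 0.25) and Myh7b (-0.04, SE 0.15) had small log2 fold changes and overlapping groups, and in the 3 libraries with little albumin the value of Myh1 was -0.54, that of Myh7 -0.13, that of Myh6 -0.21 and that of Myh7b -0.42 (SE 0.17).

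No gene of the other lists passed the edgeR test in the diaphragm. Of the 13 genes of regeneration and embryonic muscle, 9 had an unadjusted p under 0.05 and 5 were called by DESeq2, with a median log2 fold change of 1.29 and genotypes apart for 7. The 6 fast thin filament genes had a median of -0.24, with 0 at an unadjusted p under 0.05, 0 by DESeq2 and genotypes apart for 0. Among the other lists of the sarcomere and its regulation, DESeq2 called 3 of 10 light chain genes and at most 1 of each other list. Of the markers, DESeq2 called 2 cardiomyocyte genes and 1 atrial gene, and 0 hepatocyte, adipocyte, fibre or macrophage genes. The effect of genotype in the gastrocnemius minus that in the diaphragm was called for none of the 8 genes by edgeR, against 0.28% of all genes. At an unadjusted p under 0.05 there was 1 gene, the same that DESeq2 called, and no percentage of all genes is at hand for either. That gene was Myh1, with a difference of 1.19 (SE 0.33, adjusted p = 0.17 by edgeR and 0.017 by DESeq2). For Myh4 the difference was -0.02 with an SE of 0.74.

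The heart was almost wholly a Myh6 tissue. Myh6 took 94.7% ± 0.1 (SD, n = 4) of the family in WT and 95.4% ± 0.5 in Mtm1-/y, Myh7 4.64% ± 0.25 and 3.84% ± 0.57, and Myh7b 0.673% and 0.697%. The 3 fast adult genes together were 0.0128% to 0.0231% of the family, and Myh3 and Myh8 were too low to be tested by edgeR. Of the 8 genes, 7 differed between WT heart and WT gastrocnemius and 8 between WT heart and WT diaphragm, where 68.9% and 48.3% of all genes did. The exception was Myh7, which measured 1324 ± 210 CPM in WT heart, 1198 ± 588 in WT gastrocnemius and 872 ± 291 in WT diaphragm (SD, n = 4 each). Its log2 difference of heart minus gastrocnemius was 0.14 (SE 0.39, edgeR adjusted p = 0.76), and that of heart minus diaphragm, 0.64 (SE 0.24, edgeR adjusted p = 0.044), was no longer called in 10 of 19 alternatives.

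None of the 6 genes tested in the heart passed at an adjusted p under 0.05 by edgeR or at an unadjusted p under 0.05, and DESeq2 called 0. Among all genes edgeR called 0.00656% of 15238, and DESeq2 called 0.288% of 29522, low counts included. Genotypes did not overlap for 0 of the 8 genes, against 3.98% of all genes. Myh6 measured 17616, 20449, 23114 and 22962 CPM in WT and 19284, 23456, 20663 and 20603 CPM in Mtm1-/y. The groups overlapped fully, and the log2 fold change was -0.01 (SE 0.13, edgeR adjusted p = 0.98). Myh7 measured 1073, 1248, 1417 and 1559 CPM in WT and 850, 1469, 1064 and 992 CPM in Mtm1-/y, a log2 fold change of -0.28 (SE 0.18, edgeR adjusted p = 0.57).

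Within the heart the ratio of the beta to the alpha chain gene was lower in 3 of 4 Mtm1-/y libraries than in WT. Myh7 reads per kb were 4.75% to 5.30% of those of Myh6 in WT and 3.44% to 4.89% in Mtm1-/y, with means of 4.90% ± 0.27 and 4.03% ± 0.62 (SD, n = 4 each, two-sided exact permutation p = 0.11). The merged exons used here span 8616 bases in Myh7 and 6726 in Myh6. The longest coding transcripts, of 6230 and 6113 bases, would give higher percentages in both genotypes. Mtm1-/y 2 was the library inside the WT range. It was also the Mtm1-/y library with most RNA of the atrial genes Nppa and Myl7, at 3078 and 1268 plain CPM against 144 to 618 and 1.27 to 9.25 in the other 3. In WT, Nppa ran from 651 to 20622 and Myl7 from 44.9 to 5363 plain CPM, the highest values in WT 4, and the summed level of 8 atrial markers was 845 to 34854 in WT and 236 to 6069 in Mtm1-/y. In the heart the median over 8 adipocyte markers was -2.58 on the log2 scale, with 0 called by edgeR, 7 at an unadjusted p under 0.05 and 7 by DESeq2. The part of atrial or adipose RNA in the ratio was not tested. Of the other lists in the heart edgeR called 0, and DESeq2 called 2 hepatocyte markers, 1 macrophage marker and 1 atrial marker. The 12 hepatocyte markers had a median of 2.33 on the log2 scale, with 11 at an unadjusted p under 0.05. Genotypes did not overlap for 8 of them, against 3.98% of all genes. Their summed level was 5.90 to 78.4 plain CPM in WT and 53.8 to 162 in Mtm1-/y.

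Myh7b, the host of miR-499, measured 160, 196, 147 and 69.2 CPM in WT heart and 146, 152, 156 and 148 CPM in Mtm1-/y. WT 4 was the low library and the other 7 were close to each other. The log2 fold change was 0.07 (SE 0.25, edgeR adjusted p = 0.92). Of the antisense genes, 5 were tested in the heart and 0 passed by edgeR, with 0 at an unadjusted p under 0.05 and 0 by DESeq2. Mhrt, which runs antisense within Myh7, measured 54.0 to 80.4 plain CPM in WT and 39.1 to 68.3 in Mtm1-/y, with a log2 fold change of -0.24 (SE 0.17).

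**Figure D4:**
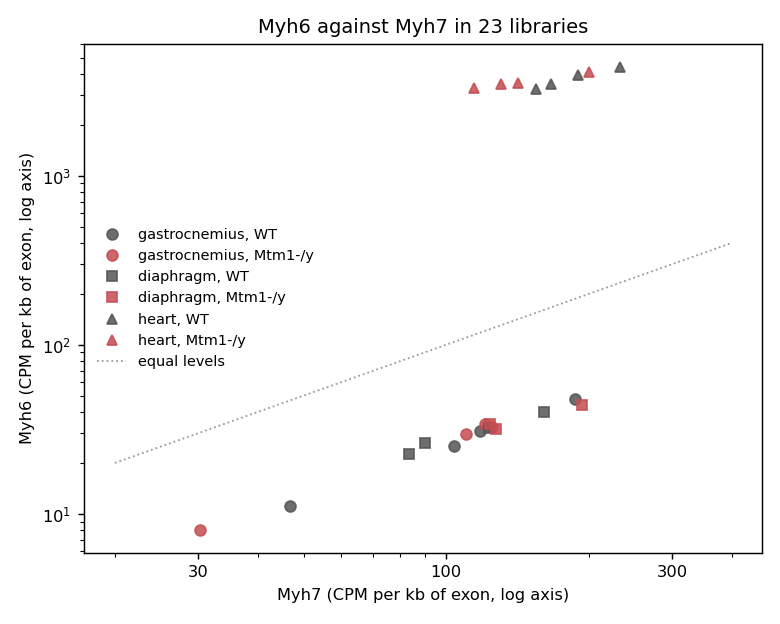
Myh6 against Myh7 in the 23 striated muscle libraries, both as plain CPM per kb of exon on log axes, with a dotted line at equal levels. The 15 skeletal libraries lie along a line at a ratio of 0.226 to 0.290, and the 8 heart libraries lie far above it at 18.9 to 29.1.

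In the skeletal muscles Myh6 followed Myh7 closely. The ratio of Myh6 to Myh7 per kb was 0.226 to 0.290 in all 15 gastrocnemius and diaphragm libraries, although Myh7 itself ran from 260 to 1665 plain CPM in them. In the 8 heart libraries the ratio was 18.9 to 29.1. With the longest coding transcripts as lengths, the ratio would be lower in all these libraries. Of the cardiac markers in the same skeletal libraries, Tnni3, cardiac troponin I, was at 0.463 to 2.37 plain CPM and Nppa at 0 to 1.49. The others were not all low. The summed level of the cardiomyocyte list was 141 to 621 plain CPM in the diaphragm, where Actc1 had a mean of 264 CPM in WT and 429 in Mtm1-/y. That sum was 5358 to 6363 in WT and 450.7 to 2368 in Mtm1-/y gastrocnemius, against 38911 to 61092 in the heart. Of the windows of Myh6, 22.6% are identical in Myh7, and 51.2% differ in at most 2 bases. Only uniquely aligned reads were counted, so a read from an identical window adds to neither gene. How much of the skeletal Myh6 count stems from Myh7 transcripts was not tested.

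The genotype effect in the heart minus that in the gastrocnemius was called for 2 of the 8 genes by edgeR, where 19.8% of all genes were called. For Myh1 the difference was -1.32 (SE 0.27, edgeR adjusted p = 0.0043), from a log2 fold change of -0.26 in the heart, at 1.04 to 2.02 CPM, and of 1.08 in the gastrocnemius. The other gene was Myh8, which stood at 0.0642 to 1.46 CPM in the heart and did not pass the filter on low counts there, so that it entered through the gastrocnemius and no heart effect is given. For Myh4 the difference was 0.07 (SE 0.56), and its own estimates were -0.97 (SE 0.73) in the diaphragm and -0.95 (SE 0.53) in the heart, where it stood at 0.29 to 1.65 CPM. The 3 differences between tissues share libraries with each other. The heart minus diaphragm difference was called for none of the 8 genes by edgeR, against 0.00573% of all genes. No percentage of all genes is at hand for the 2 genes, Myh3 and Myh8, that had an unadjusted p under 0.05 and were called by DESeq2. Both were under the filter in the heart alone and entered through the diaphragm, so these calls compare no heart effect.

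The liver holds no striated muscle of its own. The 8 genes together were 0.000738% of the reads of a WT liver library on average and 0.00139% of an Mtm1-/y library. None passed the edgeR test, where 0% of 14305 genes did, with 3 at an unadjusted p under 0.05. DESeq2 called 1, Myh6 (adjusted p = 0.041), where it called 0.0914% of 27357 genes, low counts included. Genotypes did not overlap for 2 of the 5 genes tested, Myh1 and Myh2, against 6.05% of all genes. Myh6 had 2, 4 and 2 counts in WT liver and 1, 55, 50 and 58 counts in Mtm1-/y 1 to 4. Mtm1-/y 1 was at the WT level and the other 3 were not, and edgeR called Myh6 when that library was left out (log2 fold change 4.26, adjusted p = 0.036). Myh4 had 167 to 191 counts in WT and 253, 136, 29 and 15 in Mtm1-/y 1 to 4. Myh1 and Myh2 were high in Mtm1-/y 2 alone, with 341 and 422 counts against 9 to 40 and 5 to 29 in the other 6 libraries.

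The genes whose pattern over the 8 groups was most like that of each member were found by the root mean square difference of their centred mean log2 CPM, over 12481 genes. Pvalb, the calcium buffer parvalbumin of fast fibres, was nearest to Myh4 at 0.49, followed by Actn3 at 1.00. Mybpc1, the slow myosin binding protein C, was nearest to both Myh1 (0.36) and Myh2 (0.39), with Smtnl1 next for both. Ckmt2 and Cox6a2, mitochondrial genes of striated muscle, were nearest to Myh7 at 0.35 and 0.43. Myl3 and Myl2, light chains of the ventricle and of slow fibres, were nearest to Myh6, but at the large distances of 1.34 and 1.61. Myog at 0.83 and Chrnd, an acetylcholine receptor subunit, at 0.90 were nearest to Myh3, Shisa2 at 0.57 and Shisa4 at 0.58 to Myh8, and Mpped2 at 0.17 and Ephb1 at 0.28 to Myh7b. These are distances over 8 group means, without a test.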

How the data were processed

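The values deposited by the authors are raw counts per gene, made from single reads of 50 bases. The submitters' processing notes name bcl2fastq 2.17.1.14, cutadapt 1.10, the aligner STAR 2.5.3a, the mm10 genome and, for counting, HTSeq 0.6.1p1. By the paper, only uniquely aligned reads were counted, and reads of ambiguous assignment were left out. The libraries held 24873817 to 44289343 counts over 36103 genes, and every column was matched to a sample by its title.

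Each tissue was fitted alone with edgeR 4.0.16 in R 4.3.3 (filterByExpr at a count minimum of 10, TMM, the quasi-likelihood test, p-values adjusted by Benjamini-Hochberg over every gene that passed the filter, threshold 0.05), and pairs of tissues were fitted together for contrasts between tissues. DESeq2 1.42.0 and limma 3.58.1 (voom with sample weights), other scalings, no filter on low counts, a fold threshold, a replicate block and the omission of each library in turn were alternatives. The values of 1 planned scaling are not reported here. The edgeR fit was checked on simulated counts with known changes. Shares used merged exon lengths from the mm10 annotation and exact permutation tests (2-sided, doubling the smaller tail, scipy 1.17.1). Levels over all libraries used 1 TMM normalization. Percentages of all genes were counted for edgeR calls, for DESeq2 calls within a tissue and for groups that do not overlap. They were not counted for unadjusted p-values or for DESeq2 between tissues, so those counts have no background. DESeq2 was fitted without the filter on low counts. Its percentages therefore stand over more genes than those of edgeR and cannot be set side by side with them.

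The 8 genes, the lists of other genes and the marker lists were chosen with earlier results of these data known. From each list of sarcomere, regulatory or antisense genes, up to 3 with the smallest p in the gastrocnemius among those passing the test were named, or the 2 of highest level where none passed. Myl3 and Mylk2 were named in addition, since they too fell. Genes most like a member were the 2 nearest over the 8 tissue and genotype groups among genes of at least 5 CPM in a group. Promoters and microRNAs were read from RefSeq tables on GRCm38.p6.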

Additional observations from a re-analysis of the deposited data

Results flagged for a closer look

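Shares were tested for a library far from the other 3, once for each gene in each group of 4 libraries. Of these 40 tests, 2 found such a library, where chance gives about 1 in 20 for a single test. Shares of a library are parts of the same total, so the tests are not independent. The share of Myh7b was 0.00808% in gastrocnemius Mtm1-/y 3 and 0.0416% to 0.0446% in the other 3 libraries of that group. The share of Myh7 was 5.02% in heart WT 4 and 4.50% to 4.54% in the other 3, and this was the library with the highest Nppa, at 20622 plain CPM, which was not tested for a part in it.

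A difference of the genotype effect between tissues, tested as an interaction by edgeR, was found for Myh1 among the genes that passed the filter on low counts in both tissues. The effect in the heart minus that in the gastrocnemius was -1.32 on the log2 scale, from heart levels of at most 2.02 CPM.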

How the results depend on the processing

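Of 208 alternative values of 11 counts, 198 stayed within 1.5 times the value reported, and no gene that passed the edgeR test changed sign under an alternative. In the gastrocnemius the count was 5 whichever library was left out, but edgeR on all 30 libraries called 1, Myh3. In the diaphragm DESeq2 and edgeR on all 30 libraries each called 2 and in the liver DESeq2 called 1, where edgeR on the tissue called 0. The liver count was 0 to 1 with each library left out, 1 only without Mtm1-/y 1. WT gastrocnemius against WT diaphragm gave 4 by DESeq2 and 2 to 4 with each library left out, 4 without diaphragm Mtm1-/y 1 and without Mtm1-/y 4. DESeq2 called 1 gene for gastrocnemius minus diaphragm and 2 for heart minus diaphragm, both under the filter in the heart. The count of shares that did not overlap was 7 to 10, 10 without diaphragm Mtm1-/y 1. The cause of these differences was not tested.

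Replicate numbers in the labels do not state a shared animal, and the deviations of same-numbered libraries correlated at -0.04 to 0.22 between genotypes in the gastrocnemius, -0.75 to 0.56 in the diaphragm and -0.51 to 0.41 in the heart. With the replicate number as a block, the count was 7 in the gastrocnemius, with Myh7 (-0.61, edgeR adjusted p = 0.026) and Myh6 (-0.50, adjusted p = 0.037) in addition. The count was 3 between the WT skeletal muscles and stayed at 2 for heart minus gastrocnemius. There Myh3 (edgeR adjusted p = 0.0041) took the place of Myh8 (adjusted p = 0.051), and both were under the filter in the heart. For the other 7 the count was unchanged.

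With 3 or 4 libraries a group, exact tests could not give a p under 0.0286, or under 0.0571 where a group had 3. In the comparison of genotypes over all 7 diaphragm libraries, the SE of Myh3 was 1.1 on the log2 scale.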
